A study of Mus musculus with 18 samples.

Results

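The genes described here are membrane transporters of drugs, bile constituents and lipids: the organic anion and cation carriers of the Slco, Slc22a and Slc47a families, the fatty acid transport proteins of the Slc27a family, and the ATP-binding cassette (ABC) transporters of the Abca, Abcb, Abcc and Abcg families. Members were the protein-coding autosomal genes of GENCODE M1 whose symbol begins with one of these 8 prefixes, with Abcb11 left out, which gave 88 of 21418 autosomal protein-coding genes. Their sites were the merged peaks that overlapped the gene or lay within 10 kb of it, 303 of 51302 autosomal sites. The rule used gene symbols and positions and no peak value, although it was set with earlier results of these data known.

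Open chromatin was profiled by FAIRE-seq, in which fixed chromatin is sheared and extracted so that DNA not held by nucleosomes is recovered and sequenced. Livers came from male mice of 9 strains, 2 mice per strain, all kept for 8 weeks, from 8 weeks of age, on a diet high in fat and sucrose (HF/HS), so that no chow-fed liver was among the samples. The recombinant inbred strains were BXH2/TyJ and BXH19/TyJ, which descend from a cross of C57BL/6J and C3H/HeJ, and the 7 inbred strains were AKR/J, A/J, C57BL/6J, DBA/2J, CBA/J, C3H/HeJ and BALB/cJ. Each strain had 1 list of reproducible peaks made from its 2 mice, so the values of a strain carry no replicate error, and no test between strains was possible.

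Hepatocytes take up organic anions, cations, carnitine and fatty acids from the blood across their basolateral membrane, modify them, and export the products either into bile across the canalicular membrane or back into the blood. The Slco and Slc22a carriers and the fatty acid transport proteins serve uptake, whereas ABC transporters use ATP to export conjugates, phospholipids and sterols or to move substrates across organelle membranes. Several members are known mainly from kidney, brain, lung, retina or testis, and the shared prefix does not make a gene hepatic.

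The 9 lists held 26769 to 30613 peaks, with the fewest in DBA/2J. Read numbers per library were not used here. Of the defining hepatocyte markers, 6 of 6 had a site within 1 kb of a transcription start site (TSS), in all 9 strains for Apoa1 and Hnf4a, but Alb held a peak in only 2 strains and Cps1 in 1. Of the Kupffer cell markers 0 of 5 had such a site, which does not show that the cells were absent. Stellate markers had one for 3 of 4 genes, endothelial markers for 2 of 4 and cholangiocyte markers for 2 of 4, in all 9 strains only for Sox9. Of 3 neuron markers, which liver should lack, 1 had one (Snap25, in 3 strains), and over all autosomal protein-coding genes the share with an own TSS site was 60.0%. Bulk tissue does not tell apart a change in cell numbers from a change in accessibility per cell.

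A strain was taken to hold a site, which is then termed called, where its list had a peak sharing at least 1 bp with the site. The height of a peak is given as its percentile within the list of its own strain, with 100 for the highest peak, because nothing states that the signal values of the lists share a scale. A strain without a peak may still be accessible there at a lower level than the caller required.

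The 8 sequences printed here carry the patterns described below, all on the plus strand of NCBIM37 (mm9). The first 2 come from sites called only in A/J and BXH2/TyJ, at the promoters of Abcg1 (chr17:31194534-31194733) and Abcb1b (chr5:8798455-8798654). The next 2 come from sites called only in AKR/J and BXH19/TyJ, upstream of Slco1a4 (chr6:141806371-141806570) and in an intron of Abcg8 (chr17:85088859-85089058). Each is a window of 200 bp around the summit of the highest peak, with CpG dinucleotides in capitals, to show how the base composition differs between them.
Abcg1 promoter: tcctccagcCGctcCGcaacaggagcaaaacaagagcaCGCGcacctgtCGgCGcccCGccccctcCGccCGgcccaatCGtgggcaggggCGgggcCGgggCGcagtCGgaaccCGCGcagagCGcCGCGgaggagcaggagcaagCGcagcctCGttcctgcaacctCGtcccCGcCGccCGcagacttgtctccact
Abcb1b promoter: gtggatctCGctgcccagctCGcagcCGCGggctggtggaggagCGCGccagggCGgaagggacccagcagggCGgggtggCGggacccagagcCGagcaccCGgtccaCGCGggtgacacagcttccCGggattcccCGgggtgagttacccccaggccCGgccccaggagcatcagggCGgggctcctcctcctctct
Slco1a4 upstream: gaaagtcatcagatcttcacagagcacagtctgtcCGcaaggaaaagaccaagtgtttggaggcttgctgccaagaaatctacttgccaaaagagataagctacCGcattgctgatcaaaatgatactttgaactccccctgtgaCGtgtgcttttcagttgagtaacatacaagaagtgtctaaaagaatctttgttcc
Abcg8 intron: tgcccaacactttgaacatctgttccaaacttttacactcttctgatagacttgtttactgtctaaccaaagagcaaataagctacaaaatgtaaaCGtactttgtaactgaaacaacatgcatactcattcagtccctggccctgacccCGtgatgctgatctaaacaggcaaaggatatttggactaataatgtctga
The Abcg1 window held 25 CpG and 73.0% GC and the Abcb1b window 17 CpG and 74.0% GC, against 3 CpG and 42.5% GC in the Slco1a4 window and 2 CpG and 39.0% GC in the Abcg8 window.

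The next 2 sequences show 300 bp around the summits of promoter sites of Abcb4 (chr5:8893751-8894050) and Slco2b1 (chr7:106844155-106844454) that hold the HNF4A motif CAAAGTCCA, in capitals. HNF4A is a nuclear receptor that directs many hepatocyte genes.
Abcb4 promoter: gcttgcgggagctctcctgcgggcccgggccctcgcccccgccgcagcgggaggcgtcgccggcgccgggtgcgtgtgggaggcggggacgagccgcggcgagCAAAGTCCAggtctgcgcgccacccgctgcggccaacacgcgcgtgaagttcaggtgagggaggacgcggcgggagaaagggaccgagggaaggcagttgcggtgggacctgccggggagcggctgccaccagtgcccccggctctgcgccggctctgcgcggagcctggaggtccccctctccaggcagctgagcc
Slco2b1 promoter: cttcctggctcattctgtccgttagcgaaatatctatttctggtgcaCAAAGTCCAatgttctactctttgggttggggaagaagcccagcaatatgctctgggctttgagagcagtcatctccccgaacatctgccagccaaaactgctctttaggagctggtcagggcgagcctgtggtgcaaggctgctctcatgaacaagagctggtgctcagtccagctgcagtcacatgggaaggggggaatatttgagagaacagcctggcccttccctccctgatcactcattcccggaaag
The last 2 show 200 bp around the summits of 2 sites that differ between strains, in the Abcc6 gene (chr7:53247928-53248127) and inside Slco2b1 (chr7:106813123-106813322), each with 1 match to the C/EBP motif TTGCNNAA in capitals. C/EBP factors are leucine zipper proteins that are abundant in liver.
Abcc6 exon: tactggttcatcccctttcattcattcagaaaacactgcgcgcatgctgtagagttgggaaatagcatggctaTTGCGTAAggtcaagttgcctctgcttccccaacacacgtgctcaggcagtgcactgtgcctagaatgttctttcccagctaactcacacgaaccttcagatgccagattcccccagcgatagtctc
Slco2b1 internal site: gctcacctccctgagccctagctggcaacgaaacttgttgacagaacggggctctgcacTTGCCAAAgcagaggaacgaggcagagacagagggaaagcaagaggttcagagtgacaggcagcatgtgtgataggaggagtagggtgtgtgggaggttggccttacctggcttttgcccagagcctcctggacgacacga

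Of the 88 transporter genes, 69 (78.4%, exact 95% interval 68.4 to 86.5) had at least 1 site, against 72.9% of all autosomal protein-coding genes. The transporter genes were long, with a median length of 56100 bp against 15500 bp for all genes, and had a mean of 3.62 against 2.85 sites per gene. At least 1 site called in all 9 strains was near 39 genes (44.3%, interval 33.7 to 55.3), against 52.9%. A site within 1 kb of an own TSS was present at 51 genes (58.0%, interval 47.0 to 68.4), against 60.0% of all genes, and such a site was called in all 9 strains at 28 genes (31.8%, interval 22.3 to 42.6), against 41.3%. For each of these shares, the share of all genes lay inside the interval of the transporter genes. Intervals are Clopper-Pearson intervals and cover counting error only.

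Among the 303 sites, 66 (21.8%, interval 17.3 to 26.9) were called in all 9 strains, against 26.6% of all autosomal sites, 88 (29.0%, interval 24.0 to 34.5) in a single strain, against 26.6%, and 149 (49.2%) in 2 to 8 strains, against 46.9%. Within 1 kb of the TSS of any gene lay 91 of them (30.0%), against 29.7%. The median percentile of their peaks was 47.8, against 51.3 for all sites. The median SD of the percentile over the 9 strains, with a strain without a peak set to 0, was 12.4 percentile points, against 11.1. The shares called in all 9, in a single strain and at a TSS lay near those of all sites.

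Position went with constancy, for transporter sites as for all sites. Of the 91 transporter sites within 1 kb of any TSS, 42 (46.2%, interval 35.6 to 56.9) were called in all 9 strains, against 54.1% of all such autosomal sites, and of the 212 distal sites 24 (11.3%, interval 7.39 to 16.4), against 14.9%. Of 68 sites at an own TSS, 30 (44.1%) were called in all 9 strains, with a median percentile of 68.5. Introns held 104 sites, of which 16 (15.4%) were called in all 9, and exons 42 sites, of which 6 (14.3%) were. Of 66 sites in the flanks, 2 (3.03%) were called in all 9 and 26 (39.4%) in a single strain. A further 23 sites lay at the TSS of another gene, and 12 of these (52.2%) were called in all 9 strains.

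The uptake carriers of hepatocytes were split between genes with a constant promoter and genes without any promoter peak. Of the 10 genes listed for hepatocyte uptake, 7 had an own TSS site called in all 9 strains (against 41.3% of all genes), among them Slco2b1, Slc22a5, Slc22a7, Slc27a2, Slc27a4 and Slc27a5, and the other 3 (Slco1a1, Slco1a4 and Slco1b2) had no TSS site in any strain.

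Slc22a5, which encodes the carnitine transporter OCTN2, had the highest of these promoters. Its site was at percentile 97.3 in BXH2/TyJ and 94.6 in BXH19/TyJ, and in the inbred strains lay between 84.3 in DBA/2J and 96.4 in BALB/cJ. The promoter of Slc27a4, encoding the fatty acid transport protein FATP4, ranged over 76.7 to 93.3 with a median of 89.1, and that of Slc27a5, which encodes the bile acyl-CoA synthetase FATP5, over 73.3 to 91.0 with a median of 83.0. All 3 were above percentile 73 in every list.

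Slc22a7, encoding the organic anion transporter OAT2, had 2 sites over a start, and the one called in every strain was lowest in A/J. That site (chr17:46574825-46576421) was at 44.2 in A/J and 70.9 to 89.0 in the others. The second Slc22a7 site (chr17:46573637-46574678) was called in 6 strains at 35.8 to 56.2, with A/J at 50.3. It had no peak in C57BL/6J, CBA/J or DBA/2J. Slc27a2, which encodes FATP2, was lowest in DBA/2J at 58.0 and in C57BL/6J at 66.4, and lay between 79.4 and 93.2 elsewhere. At the promoter sites called in all 9 strains, the strain with the lowest rank thus differed between these uptake genes.

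Slco2b1 had the most sites of the Slco family, with 8 on chromosome 7. Its promoter cluster comprised 3 neighbouring sites called in all 9 strains, and the site over the start itself (chr7:106843671-106844797), which holds the HNF4A match printed above, was at 9.27 in A/J and 49.2 to 71.2 in the other strains. A site in an exon 30259 bp from the nearest counted start (chr7:106812953-106813833), printed above with its C/EBP match, was in the variable list. It was absent in A/J and AKR/J, low in BALB/cJ at 13.6, and between 51.6 and 65.7 in the 6 other strains. This site overlaps the start of a transcript whose annotated 5′ end is incomplete and was not counted as a promoter. A further intron site (chr7:106828869-106829996) was at 65.8 in BALB/cJ, 40.8 in C57BL/6J, 30.3 in BXH2/TyJ, 20.1 in AKR/J and 16.2 in BXH19/TyJ, and absent elsewhere. BALB/cJ, low at the exon site, was the highest strain at its neighbour.

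The uptake carriers of the Slco1 cluster on chromosome 6 showed few peaks. Slco1b2, the rodent counterpart of human OATP1B1 and OATP1B3, had 2 sites called in 3 strains each. The exon site was at 41.0 in C57BL/6J but at 1.54 in BALB/cJ and 1.18 in DBA/2J, and the intron site at 27.4 in AKR/J, 25.9 in BXH19/TyJ and 18.7 in DBA/2J. Slco1a4, an uptake carrier for bile acids and drugs, had 2 upstream sites, both called only in BXH19/TyJ and AKR/J. The nearer one, 1557 bp from the start, was at 25.5 in BXH19/TyJ and 35.8 in AKR/J, and the farther one at 23.8 in BXH19/TyJ and 21.0 in AKR/J. Slco1a1 had no site, the nearest lying 13472 bp away. Only reads with a single location were kept by the authors, and whether near-identical stretches of these related genes lost reads was not analysed.

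**Figure D1:**
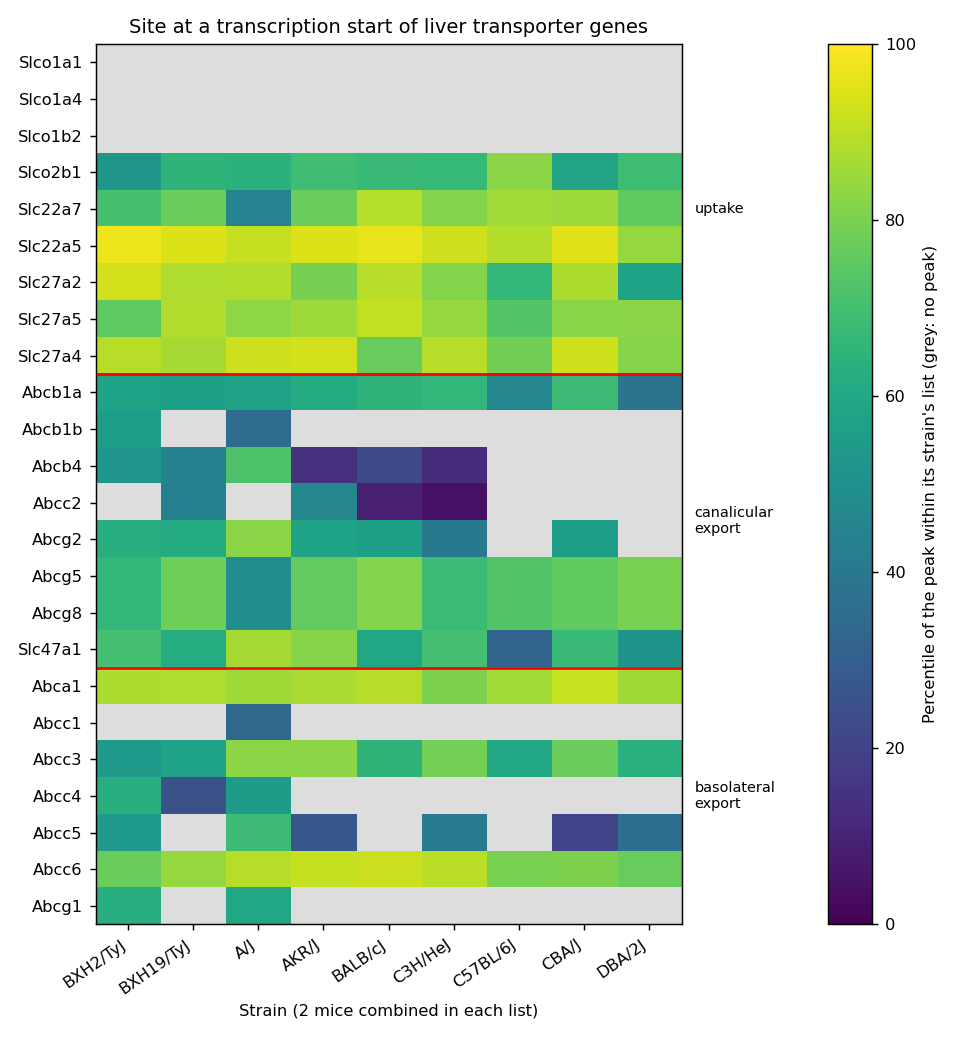
Percentile of the peak, within the list of its strain, at the TSS site of 24 liver transporter genes (rows) in 9 strains (columns), with no peak in grey. Where a gene had several TSS sites, the one called in most strains, and then the highest, is drawn. Rows for Slc22a5, Slc27a4, Slc27a5, Abca1 and Abcc6 are bright in every strain, Abcg1 and Abcb1b have colour only in A/J and BXH2/TyJ, and Slco1a1, Slco1a4 and Slco1b2 are grey throughout.

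The exporters into bile all had a promoter site in at least 1 strain. All 8 genes of the canalicular list had an own TSS site, against 60.0% of all genes. Of them, 4 had one called in all 9 strains (Abcb1a, Abcg5, Abcg8 and Slc47a1), against 41.3% of all genes. Abcg5 and Abcg8 are both counted through the same site.

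Abcg5 and Abcg8 encode the subunits of the sterol exporter that secretes cholesterol and plant sterols into bile, and they are transcribed in opposite directions from a shared start region. The site there (chr17:85081309-85083038) was called in all 9 strains, at 66.3 in BXH2/TyJ and 77.8 in BXH19/TyJ, against 73.0 in C57BL/6J and 68.2 in C3H/HeJ. A/J was lowest at 49.0 and BALB/cJ highest at 81.6. Inside Abcg8, an intron site at chr17:85092966-85093550 was higher still, from 55.2 in A/J to 91.3 in BALB/cJ with a median of 82.0. A second intron site at chr17:85089395-85089855 was at 13.7 in DBA/2J, 34.1 in A/J and 62.9 to 80.3 in the other strains. Between it and the start lay the site printed above (chr17:85088620-85089194), a member of the variable list called only in BXH19/TyJ at 13.8 and AKR/J at 25.8. The common list held 1 site of the locus, in an Abcg8 exon, called in A/J at 30.7, BALB/cJ at 10.5 and CBA/J at 1.02. The sterol transporter genes thus combined 3 sites called in every strain with neighbours that few strains shared.

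**Figure D2:**
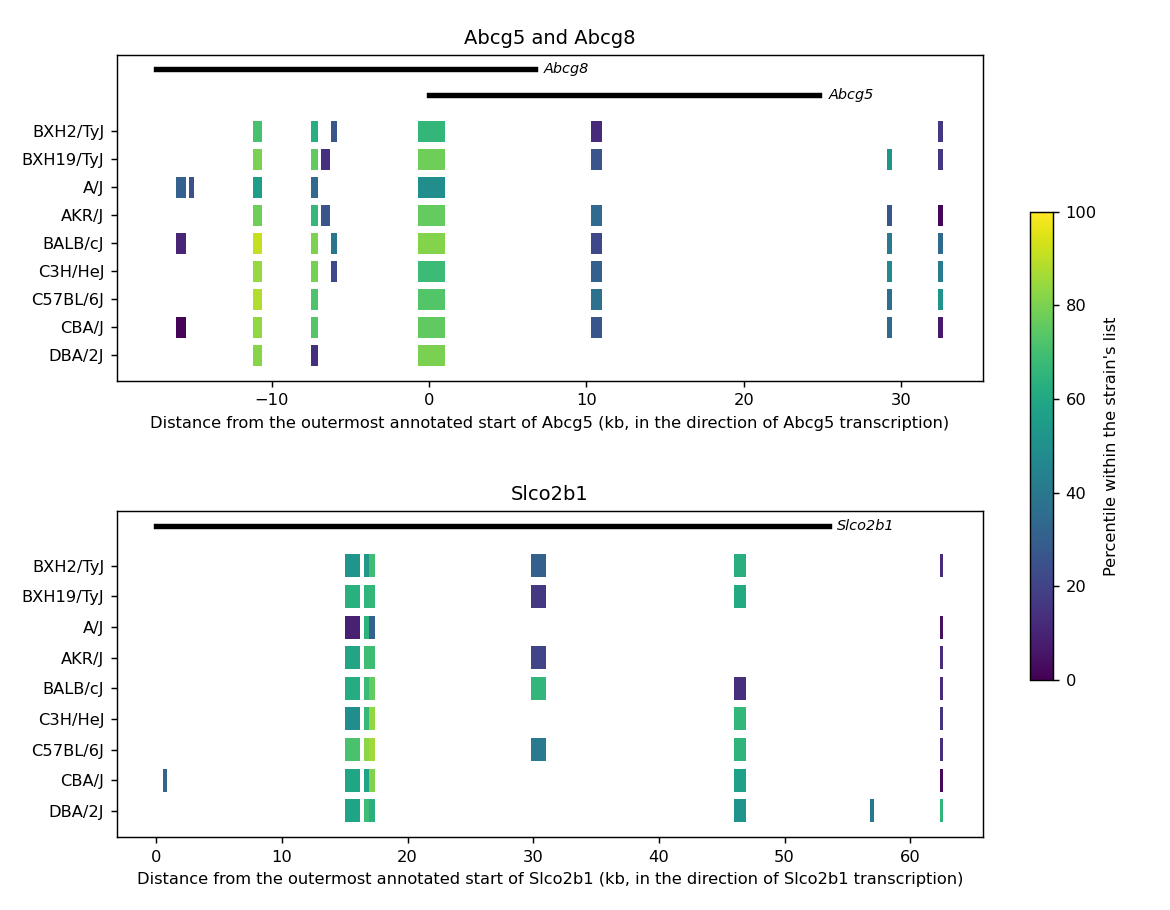
Sites of the Abcg5 and Abcg8 genes (top) and of Slco2b1 (bottom) in the 9 strains, drawn by distance in kb from the outermost annotated start and coloured by percentile within the list of the strain, with the gene extents as black lines. The shared start and the Abcg8 intron site about 10 kb from it are called in all strains, whereas the Slco2b1 exon site about 46 kb from the outermost start is missing in A/J and AKR/J.

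The genes of the multidrug resistance cluster on chromosome 5 differed. Abcb1a, encoding one of the mouse P-glycoproteins, had a promoter called in all 9 strains, at 38.6 in DBA/2J, 46.4 in C57BL/6J and 56.9 to 68.5 in the others. The promoter of Abcb1b, the other P-glycoprotein gene, was called only in BXH2/TyJ at 55.5 and A/J at 35.1. Abcb4, which encodes the flippase that delivers phosphatidylcholine to bile, had its promoter called at 52.2 in BXH2/TyJ and 44.0 in BXH19/TyJ, 72.2 in A/J, 22.7 in BALB/cJ, 14.1 in AKR/J and 12.8 in C3H/HeJ, and not in C57BL/6J, CBA/J or DBA/2J. An exon site of Abcb4 (chr5:8928376-8928867) was called in all 9 strains at 52.2 to 73.4. The Abcb4 promoter window printed above had a GC content of 76.0%. Of the 28 Abcb sites, 0 were in the variable list, as were 0 of the 7 Slc47a sites, against 4.87% of all autosomal sites.

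Abcg2, which encodes the breast cancer resistance protein that exports urate and drugs, had its promoter (chr6:58590272-58590996) called in 7 strains. It was at 63.0 in BXH2/TyJ and 61.6 in BXH19/TyJ, at 40.6 in C3H/HeJ, and without a peak in C57BL/6J. Among the other inbred strains it was highest in A/J at 82.8, lay between 55.5 and 58.0 in AKR/J, BALB/cJ and CBA/J, and had no peak in DBA/2J. Abcc2, encoding the exporter of conjugated bilirubin MRP2, had a promoter peak in only 4 strains, at 44.1 in BXH19/TyJ, 46.4 in AKR/J, 8.79 in BALB/cJ and 4.96 in C3H/HeJ. Its most constant site was in an intron (chr19:43871637-43872157), at 45 to 78.2 in 8 strains and absent in A/J. Slc47a1, encoding the proton-coupled cation exporter MATE1, had a site over its start called in all 9 strains, from 32.5 in C57BL/6J to 86.7 in A/J. At the sites over the starts of Abcb4, Abcg2 and Slc47a1, A/J was the highest strain, and C57BL/6J was lowest or without a peak. A second Slc47a1 site 629 bp from the start (chr11:61192212-61192549) went the other way. It was highest in C57BL/6J at 63.4 and had no peak in A/J or BXH2/TyJ.

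Among the exporters to blood, 7 of 7 had an own TSS site, against 60.0% of all genes. In 3 of them (Abca1, Abcc3 and Abcc6) it was called in all 9 strains, against 41.3% of all genes. Abca1, which loads cholesterol and phospholipid onto apolipoprotein A-I, had 17 sites, the most of any member. Its promoter (chr4:53171473-53173184) was among the least variable, at 87.6 in BXH2/TyJ and 88.1 in BXH19/TyJ, against 86.3 in C57BL/6J and 80.4 in C3H/HeJ, and at most 91.7, in CBA/J. A further 3 Abca1 sites, 2 in introns and 1 in an exon, were called in all 9 strains and were lowest in A/J at 22.3, 45.9 and 43.8, against 51.2 to 87.2 in the 8 other strains. A/J was at 85.6 at the promoter, within the range of the other strains, and below all of them at these internal sites.

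Abcg1, which moves cholesterol to high-density lipoprotein, showed a promoter peak only in BXH2/TyJ at 62.8 and A/J at 59.4 (chr17:31194321-31195407). An intron site (chr17:31210195-31210626) was called in all 9 strains, lowest in BALB/cJ at 19.4 and highest in A/J at 79.9, with a median of 54.0. Abcc3, encoding the basolateral glucuronide exporter MRP3, had 12 sites and a promoter called in all 9 strains at 54.2 to 82.8. An intron site of Abcc3 (chr11:94231772-94232428) was in the variable list and was called at 33.1 in BXH2/TyJ, 40.0 in BXH19/TyJ, 31.0 in BALB/cJ, 24.3 in C57BL/6J and 7.07 in DBA/2J. Both recombinant strains shared this peak with C57BL/6J, and C3H/HeJ had none.

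Abcc6, whose loss causes ectopic mineralisation, had a promoter at 76.7 to 92.1 in all 9 strains. Its variable-list site, over an exon 37223 bp from the start (chr7:53247052-53248449) and printed above, was called in CBA/J at 55.4, BALB/cJ at 51.3, AKR/J at 40.4 and C57BL/6J at 39.6, and in no other strain. Abcc4, encoding MRP4, an exporter of bile acids and cyclic nucleotides, had a promoter peak in BXH2/TyJ at 63.2, A/J at 55.4 and BXH19/TyJ at 24.7, but 2 intron sites called in all 9 strains with medians of 67.5 and 77.6. Abcc5, encoding the nucleotide exporter MRP5, had 1 site, its promoter, called in 6 strains at 20.2 to 68.6 and highest in A/J. Abcc1, encoding MRP1, had a promoter peak only in A/J, at 33.7.

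Of the 6 organelle transporter genes, 5 had an own TSS site in all 9 strains, against 41.3% of all genes, at ranks that differed between genes. Abcb9, encoding a lysosomal peptide transporter, had the highest site of all members, at 95.6 to 99.5 with a median of 98.4 (chr5:124544951-124546404). The mitochondrial transporter genes Abcb8 and Abcb10 had medians of 91.6 and 71.0 and Abcb6, linked to porphyrin transport, of 80.2, while Abca2 had a median of 51.5 and ranged over 11.9 in C57BL/6J to 84.3 in BXH2/TyJ. For all TSS sites called in a strain the median was 72.9 to 78.1, depending on the strain. The gene without a constant promoter was Abca5, a lysosomal transporter gene, whose promoter (chr11:110198244-110199392) was called at 76.7 in BXH2/TyJ and 65.9 in BXH19/TyJ, 83.4 in A/J, 62.0 in CBA/J, 57.8 in AKR/J, 52.8 in C3H/HeJ and 38.7 in BALB/cJ, but not in C57BL/6J or DBA/2J. Its SD of 30.4 percentile points was the largest among sites that at least 2 strains held and at least 2 lacked. Abca5 and Abcg2 shared the absence of a promoter peak in C57BL/6J and DBA/2J. The same absence held for Abcb1b, Abcb4, Abcc1, Abcc2, Abcc4 and Abcg1. Over all autosomal sites near a TSS, C57BL/6J and DBA/2J held the smallest shares, 66.0% and 63.6%.

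A list of 19 members known mainly from other organs, which does not hold Slc27a1 of muscle and adipose tissue (described below), had few constant sites. Of these genes, 10 had any site, against 72.9% of all genes, 3 had a site called in all 9 strains, against 52.9%, and 0 had an own TSS site called in all 9, against 41.3% of all autosomal protein-coding genes with one. The 9 genes without a site were Abca12 (skin lipids), Abca13, Abcb5, Slc22a2 (the renal cation transporter OCT2), Slc22a16 (a carnitine transporter of testis), Slco1c1 (the thyroxine transporter of brain capillaries), Slco6b1, Slco6c1 and Slco6d1. Abca4, which carries retinoid in photoreceptors, nevertheless had 9 sites, of which 1 in an intron was called in all 9 strains at 30.2 to 72.5. Abca3, the surfactant lipid transporter of lung, had a promoter called in 8 strains at 54.2 to 90.6 and without a peak in DBA/2J, in a region shared with Abca17. The kidney transporter genes Slc22a6 and Slc22a8 had no TSS site, but a flank of Slc22a6 (chr19:8704724-8705192) was called in 8 strains at 49.9 to 75.6 and not in A/J.

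The families differed in how many genes had a site at all. In the Slc47a, Slc27a, Abcc and Abcg families every gene had one (2, 6, 10 and 6 genes), in the Abcb family 7 of 8, in Abca 13 of 16, in Slc22a 18 of 25 and in Slco 7 of 15. Of the 19 genes without a site, 11 lay in 3 clusters of related genes and 8 stood alone. Slco1a1, Slco1a5, Slco1a6 and Slco1c1 on chromosome 6, Slco6b1, Slco6c1 and Slco6d1 on chromosome 1, and Slc22a19, Slc22a26, Slc22a27 and Slc22a28 on chromosome 19 had none within 10 kb, although Slco1b2 and Slco1a4, which lie between Slco1c1 and Slco1a1, had 2 sites each. Of a family's sites, the share called in all 9 strains ranged over 14% in Abcc (7 of 50, interval 5.82 to 26.7) to 32.1% in Abcb (9 of 28, interval 15.9 to 52.4), against 26.6% of all autosomal sites, and the intervals overlapped. Slc22a had 25% of 72 sites, Slc27a 25% of 32 and Abca 15.9% of 69. Without A/J these shares were 41.4% in Slc22a, 32.0% in Slc27a, 25.4% in Abca, 37.0% in Abcb and 22.7% in Abcc, against 35.7% of all sites, so that the order of the families was not stable.

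The largest member of the Slc22a family by sites was Slc22a23, an orphan carrier gene with 14 sites. Its start was called in only 3 strains, at 27.3 in BXH2/TyJ, 67.0 in A/J and 23.4 in BALB/cJ. In contrast, 4 intron sites were called in all 9 strains, and one of them (chr13:34314813-34315232) was at 8.49 in A/J and 63.8 to 79.4 in the other strains. Slco4a1, encoding a thyroid hormone carrier, had the highest Slco promoter with a median of 93.5, lowest in BALB/cJ at 62.0, and Abcc10, encoding MRP7, one at 90.2 to 97.5. Of the 10 constant sites with the highest medians, 5 lay at the start of a neighbour and not of the transporter itself. These were the starts of Zfp446 near Slc27a5 (median 96.6), ORF61 near Abca7 (93.8), Urm1 near Slc27a4 (91.2), Nomo1 near Abcc6 (90.5) and Zfand2b near Abcb6 (89.9).

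The authors deposited a variable list, the 5% of sites with the smallest adjusted p-value between the 7 inbred strains, and a common list, the 5% with the largest. Of the transporter sites, 17 (5.61%, interval 3.30 to 8.83) were in the variable list, against 4.87% of all autosomal sites, and 10 (3.30%, interval 1.59 to 5.99) were in the common list, against 4.93%. By gene, 13 of 88 (14.8%, interval 8.11 to 23.9) had a variable site, against 11.1% of all genes, and 9 (10.2%) a common site, against 12.8%. The background lay inside the interval of the transporter sites in both lists.

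The fatty acid transport proteins, with 32 of the 303 sites, held 7 of the 17 variable sites. These were near 4 of 6 genes, against 11.1% of all genes with a variable site. By nearest TSS, 6 of these 7 belonged to a gene outside the 8 families and only the Slc27a3 site remained, as 1 of 8 variable sites whose nearest TSS was that of a transporter gene. Slc27a1, encoding FATP1 of muscle and adipose tissue, had 4 of them around a promoter that was itself called in all 9 strains at 67.7 to 86.4. One flank site (chr8:74086337-74087089) was at 64.5 in BXH2/TyJ, 73.3 in A/J, 17.1 in BALB/cJ and 11.8 in DBA/2J. Another (chr8:74119643-74120279) was at 22.8 in BXH2/TyJ and 2.59 in BXH19/TyJ, against 34.1 in C57BL/6J and 12 in C3H/HeJ, and was highest in A/J at 75.4. The third lay at the start of Tmem221 and was called only in BXH2/TyJ at 48.8 and A/J at 61.3, and the fourth only in BXH2/TyJ at 16.9 and C57BL/6J at 7.42. A/J was the highest strain at 3 of these 4 sites.

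A flank of Slc27a2 (chr2:126422439-126422825) was called at 34.2 in BXH2/TyJ, 44.6 in BALB/cJ, 25.1 in C57BL/6J and 8.51 in AKR/J. A flank of Slc27a5 was called at 17.2 in BXH2/TyJ, 38.8 in A/J and 24.8 in DBA/2J. The promoter of Slc27a3, an acyl-CoA synthetase gene, was called only in A/J at 38.9. The same held for the promoters of Slc22a17, encoding a receptor for lipocalin-2, at 46.7 and of Slco3a1, encoding a prostaglandin and thyroid hormone carrier, at 53.3. Also called in A/J alone were an exon site of Slc22a17 at 11.6 and 2 exon sites of Abca7, a phospholipid transporter gene, at 9.03 and 32.9. In all, 6 of the 17 variable sites had a peak in A/J alone, against 11.4% of all autosomal sites. The share over the whole variable list was not computed, so the count is not a trait of transporter sites. An intron of Abca4 was called at 3.42 in BXH2/TyJ and 27.0 in BXH19/TyJ, against 35.4 in C3H/HeJ and no peak in C57BL/6J, and at 2.56 in CBA/J.

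**Figure D3:**
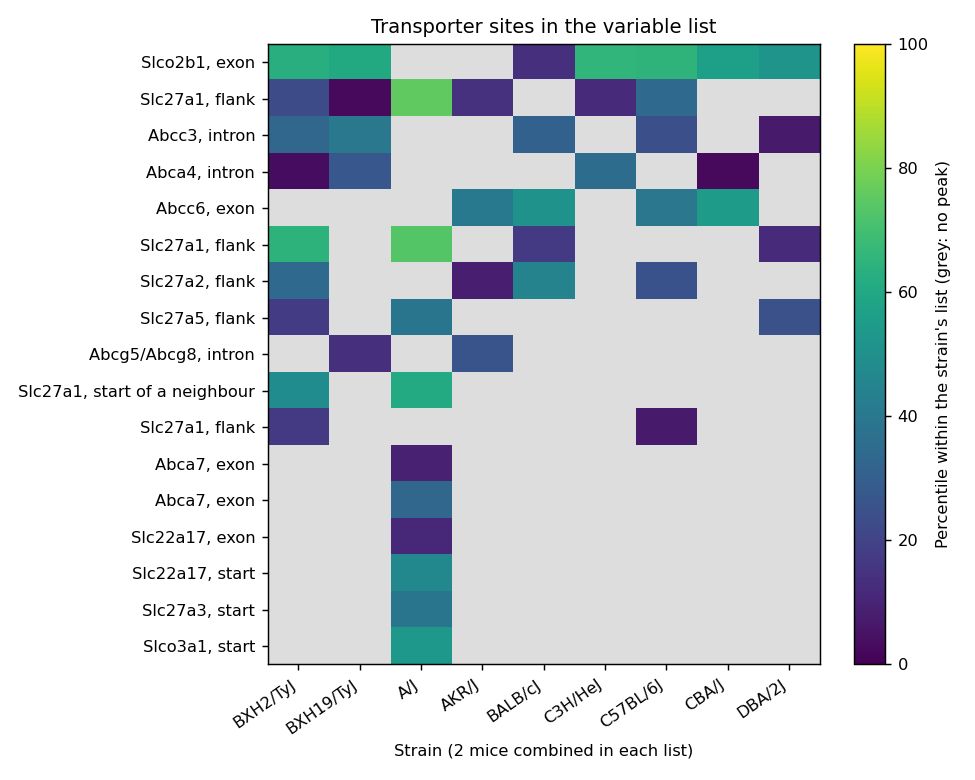
The 17 transporter sites of the variable list (rows, named by the gene and the position of the site) in 9 strains (columns), coloured by percentile within the list of the strain, with no peak in grey. The 6 lowest rows have colour only in A/J, and the Slco2b1 exon site at the top is called in 7 strains.

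At the transporter genes, the common list did not consist of sites called everywhere. Of its 10 transporter sites, 2 were called in all 9 strains, against 26.6% of all autosomal sites. The share over the whole common list was not computed. Both sites lay near Slc27a5: the start of Zfp446 at 92.2 to 98.1 and an exon site of Slc27a5 at 16.2 to 41.2. The Abca3 exon site was called in 5 strains at 7.14 to 27.1 and a flank of Slc22a18, an organic cation carrier gene, in 4 at 3.78 to 15.4. The other 6 were called in 1 to 3 strains and were low throughout. Of these, 5 lay in introns of Slc22a23, Abcc4, Abcb10 and Abcc12 and in the Abcg8 exon, and the highest of their peaks was at 30.7.

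The strains differed in which sites they held, and A/J stood apart by position. A/J held a peak at 81 of 91 transporter sites within 1 kb of any TSS (89.0%, interval 80.7 to 94.6), against 89.1% of all such autosomal sites. The recombinant strains BXH2/TyJ and BXH19/TyJ held 70.3% and 63.7%, against 77.8% and 70.7% of all sites. Their parents C57BL/6J and C3H/HeJ held 51.6% (interval 40.9 to 62.3) and 63.7%, against 66.0% and 71.3%. In C57BL/6J, and in CBA/J with 57.1% (interval 46.3 to 67.5) against 69.6%, the share of all sites lay outside the interval of the transporter sites. AKR/J, BALB/cJ and DBA/2J held 63.7%, 61.5% and 53.8%, against 68.6%, 70.0% and 63.6%. In A/J the 2 shares were nearly equal, and every other strain held a smaller share of the transporter sites than of all sites near a TSS. Outside C57BL/6J and CBA/J, the share of all sites lay inside the interval. All strains were scored at the same 91 sites, so their shares are not independent of each other.

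At the 212 distal transporter sites the order was different. A/J held 36.3% (interval 29.8 to 43.2) and DBA/2J 34.9%, against 39.6% and 39.7% of all distal sites, and both were the lowest strains in either set. BXH2/TyJ and BXH19/TyJ held 43.9% and 48.1%, against 45.0% and 49.0%, and C57BL/6J and C3H/HeJ 49.5% and 48.1%, against 50.3% and 49.6%. AKR/J and CBA/J both held 45.3%, against 48.2% and 51.6%. BALB/cJ held the most, 52.8% (interval 45.9 to 59.7), against 50.6%, and was the only strain above the share of all distal sites. In every strain, BALB/cJ included, the share of all distal sites lay inside the interval of the transporter sites.

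**Figure D4:**
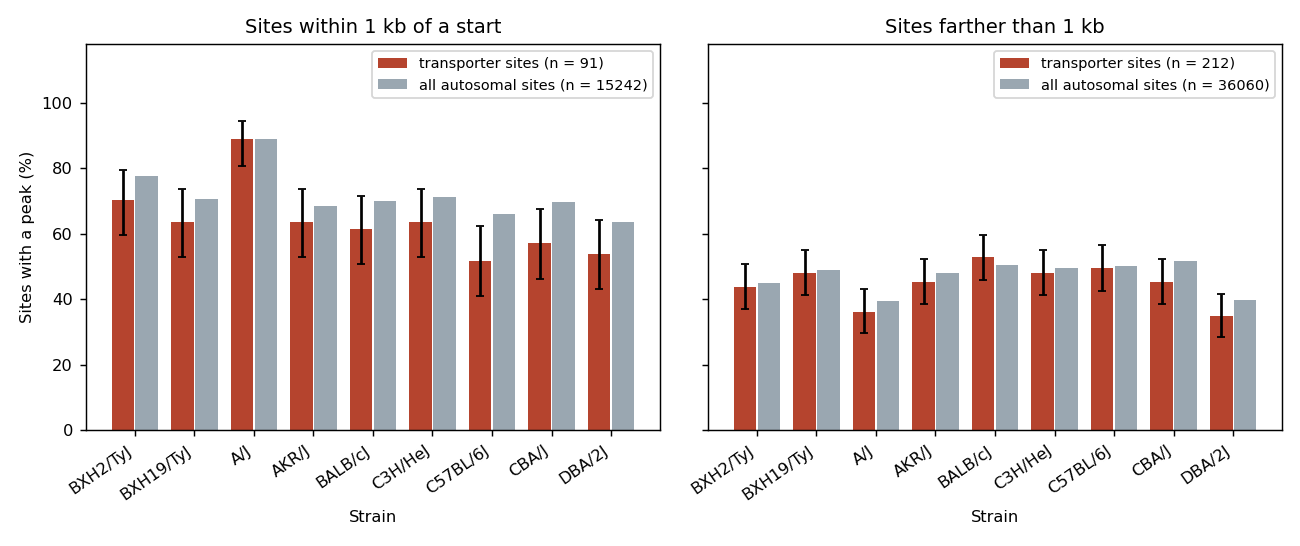
Percent of sites with a peak in each strain, for transporter sites (red) and all autosomal sites (grey), within 1 kb of a start (left panel) and farther away (right panel). Bars on the red columns are exact 95% intervals for counting error. A/J is highest near starts at 89.0% and, with DBA/2J, lowest at distal sites.

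A/J alone held 45 of the 88 single-strain transporter sites, that is 14.9% of all 303 (interval 11.0 to 19.4), against 11.4% of all autosomal sites. AKR/J and C57BL/6J alone held 8 each (2.64%, against 2.77% and 2.42%), DBA/2J and BXH2/TyJ 6 each (1.98%, against 2.11% and 1.56%), and BALB/cJ and C3H/HeJ 5 each (1.65%, against 2.31% and 1.53%). CBA/J alone held 3 (0.99%, against 1.43%) and BXH19/TyJ 2 (0.66%, against 1.04%). A/J thus held over 5 times as many sites of its own as any other strain. Conversely, 15 transporter sites (4.95%, interval 2.80 to 8.03) were called in every strain but A/J, against 5.33% of all autosomal sites, 6 (1.98%) in every strain but DBA/2J, against 1.66%, and 0 to 2 in every strain but another. Without A/J, 31.3% of 259 transporter sites were called in all 8 remaining strains, against 35.7% of all sites, and 18.9% in a single strain, against 21.8%. For the share in a single strain, the background lay inside the interval of the transporter sites in both cases. With A/J it was 26.6% against an interval of 24.0 to 34.5, and without A/J 21.8% against 14.3 to 24.2.

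Base composition moved with this. GC content averaged 61.7% ± 4.13 (SD over sites) at the 45 sites called only in A/J, and 49.5% ± 5.46 at the 43 sites called only in 1 other strain. The 15 sites called in all but A/J had 48.8% ± 2.21 and the 66 sites called in all 9 had 55.9% ± 5.35. Over all autosomal sites the same patterns had means of 61.9%, 49.7%, 49.2% and 57.3%. The median GC content of the transporter sites called in a strain was 59.3% in A/J and 51.4% to 53.3% in the others, and over all autosomal sites 58.7% and 53.3% to 55.0%. Whether library preparation or sequencing entered into this was not tested.

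**Figure D5:**
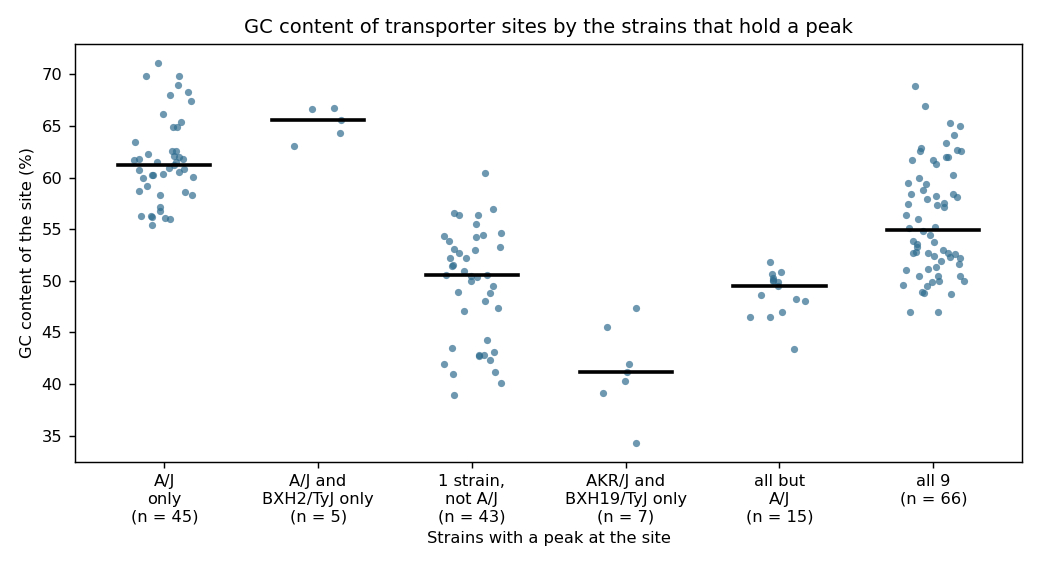
GC content of transporter sites (points, %), grouped by the strains that held a peak, with the median of each group as a line and the number of sites below. Sites called only in A/J, or only in A/J and BXH2/TyJ, lie at 55.4% or above, and sites called only in AKR/J and BXH19/TyJ lie at 47.4% or below.

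A pair of strain combinations recurred. The peaks of 5 sites occurred only in BXH2/TyJ and A/J, all at a TSS, with a mean GC content of 65.3% ± 1.54: the promoters of Abcg1, Abcb1b, Slc47a2 and Abcg4 and the start of Tmem221 near Slc27a1. Those of 7 sites occurred only in BXH19/TyJ and AKR/J, with a mean GC content of 41.4% ± 4.30: those of Slco1a4 (2), Abcg8, Abcc3, Abca1, Abca6 and Slc27a2. No other pair of strains alone shared more than 3 transporter sites. Over all autosomal sites the same 2 pairs were the most frequent, with 1084 and 644 sites. A/J and AKR/J are not parents of the BXH strains, and whether the lists of a pair were prepared together cannot be told from the files used here.

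The recombinant strains were compared with their parents at the 76 transporter sites called in only 1 of C57BL/6J and C3H/HeJ. Of the 34 sites called in C57BL/6J but not C3H/HeJ, BXH2/TyJ held 9 (26.5%, interval 12.9 to 44.4) and BXH19/TyJ 10 (29.4%, interval 15.1 to 47.5), against 32.3% and 33.8% of all such sites. Of the 42 sites called in C3H/HeJ but not C57BL/6J, BXH2/TyJ held 21 (interval 34.2% to 65.8%) and BXH19/TyJ 22 (52.4%, interval 36.4 to 68.0), against 44.2% and 46.9%. Both recombinant strains held more of the C3H/HeJ sites than of the C57BL/6J sites, for transporters as for all sites. The genotype of each recombinant strain at these loci was not used.

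Exact motif matches were counted in the 300 bp around each site's midpoint, on both strands. The FOXA motif TGTTTAC, of the forkhead factors that open liver chromatin, was found at 26 transporter sites (8.58%, interval 5.68 to 12.3), against 4.63% of all autosomal sites. They belonged to 16 genes, among them Abcb4, Abcg5, Abcg8, Abca1, Slc22a7, Slc27a2 and Slc27a5. C/EBP matches were found at 41 sites (13.5%, interval 9.89 to 17.9), against 12.8%, and HNF4A matches at 6 (1.98%, interval 0.73 to 4.26), against 1.53%. The C/EBP matches printed above, in Abcc6 and inside Slco2b1, lie near the summit and outside the midpoint window. Those sites are not among the 41. Exact forms of the longer HNF1, NFI and nuclear receptor repeat motifs (DR1, DR4, IR1 and ER6) were at 0 transporter sites, against at most 0.136% of all sites. The FOXA and C/EBP forms are short, and motifs rich in A and T also depend on base composition, which differed with position and strain as given above. A match is a match of letters and does not show that a factor was bound.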

How the data were processed

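FAIRE-seq peaks of 9 mouse strains were analysed, from 18 livers with 2 per strain. The authors aligned reads with bowtie1 to versions of mm9 carrying the SNPs of a strain, kept reads with a single location, and removed improper pairs and duplicates. Peaks were called by F-seq (feature length 400 bp) in single libraries, and IDR then selected those found in both mice. The BXH reads were aligned to both mm9 and a C3H/HeJ version of it. Not given in the sources used here were tool versions, the IDR cutoff and which of these alignments underlies the deposited BXH lists. Each deposited list holds the caller's signal value, a score without a stated common scale. The variable and common lists were ranked by the authors with DESeq on quantile-normalized counts at the union of the inbred strains, and these counts were not used here.

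All 9 lists were merged into 51957 sites (51302 autosomal). Within a strain, scores were converted to percentile ranks, and the highest overlapping peak represented a site. Genes and sequences came from GENCODE M1 and NCBIM37, and all 21 chromosome names matched, with 0 sites beyond a chromosome end. A TSS was the start of a protein-coding transcript with a complete 5′ end, or of any transcript where a gene had none. Intervals are Clopper-Pearson at 95%. Since lists combine mice, no test was run, and read numbers per library were not used. Site merging, calls and gene assignment matched a base-by-base computation in 50 of 50 simulated runs.

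The members and gene lists were chosen with earlier results of these data known. Named are genes with a variable or common site, the genes of the uptake, canalicular and basolateral lists, the gene with most sites in each family, the genes of the 10 sites with the largest SD of percentile among those that at least 2 strains held and at least 2 lacked, those of the 10 highest constant sites, and listed genes without a site. Values of 1 listed uptake gene are not reported here. Other members were named after their values were seen. Alternatives were windows of 0, 5 and 50 kb, assignment by nearest TSS, the 7 inbred strains alone, the 20000 highest peaks per list, a 50% overlap with the lists, and each strain left out. Tools were Python 3.11.15, numpy 2.4.6, scipy 1.17.1, pandas 2.3.3 and matplotlib 3.10.9.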

Additional observations from a re-analysis of the deposited data

How the results depend on the processing

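No paired analysis was possible because each list combines both mice of a strain and holds no value per replicate. Strains were left out in turn instead. This gave 72.7% to 78.4% of transporter genes with a site (78.4% with all strains), 22% to 31.3% of transporter sites called in all strains (21.8%), 18.9% to 33.6% in a single strain (29.0%), 4.25% to 5.76% in the variable list and 3.05% to 3.86% in the common list. Both the 31.3% and the 18.9% were the values without A/J, against 35.7% and 21.8% of all autosomal sites at the same setting. Sites within 50 kb gave 90.9% of genes with a site, 26.9% of sites called in all strains, a median percentile of 53.4 and 7 of the 19 genes known from other organs with a constant site (3 at 10 kb). With the gene body alone the median percentile was 51.6 and that count 1, and with assignment by nearest TSS 51.8 and 1. Nearest TSS also gave 3.83% of sites in the variable and 4.31% in the common list. The family with the highest share of sites called in all strains depended on these choices: it was Abcb at 10 kb (32.1%), Slc27a with the gene body alone (41.7%, Slco 41.2%, Abcb 30.0%), Slco by nearest TSS (36.8%, Abcb 31.6%) and Slc22a without A/J (41.4%, Slco 40.0%, Abcb 37.0%). With only the 20000 highest peaks per list, 68.2% of genes had a site, 1.06% of sites were in the common list, the median percentile was 64.8 and the median SD 18.0 percentile points, in part because low peaks were removed and strains without a peak count as 0. Over the 7 inbred strains, 36.8% of sites were called in a single strain. The motif counts in windows centred on the summit, an alternative chosen after seeing the data, stayed within their intervals, with FOXA at 26 sites again. Rank percentiles from lists of unequal length show no change in accessibility, and peak lists give no interval on any strain's value.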

Other observations

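The chromosome 11 cluster of Abca genes, which are related lipid transporters, showed differences between neighbours. Abca8b had a promoter called in all 9 strains, at 83.1 in BXH2/TyJ and 79.5 in BXH19/TyJ, against 67.8 in C57BL/6J and 76.3 in C3H/HeJ, and lowest in A/J at 51.7. Abca8a and Abca9 had no TSS site, and the TSS sites of Abca6 were called in at most 2 strains. Near the carnitine and ergothioneine carrier genes on chromosome 11, the promoter of Slc22a4 was called in all 9 strains at 51.7 in C57BL/6J to 89.4 in A/J, and an intron site of Slc22a4 (chr11:53820347-53820906) in all 9 at 60.8 in A/J to 91.7 in C3H/HeJ. The promoter of Slc22a21, next to it, was lowest in C57BL/6J at 29.1 and highest in BXH2/TyJ at 87.0. A/J ranked highest at the Slc22a4 promoter and lowest at its intron site.

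Slco4a1 had an intron site called in all 9 strains whose percentile was 0.294 in A/J, the lowest value at any constant transporter site, and 34.3 to 85.9 in the other strains. At Slc22a18, an imprinted gene in mouse, 3 neighbouring TSS sites were called in all 9 strains. The first was at 10.1 in A/J, 29.3 in BXH2/TyJ and 40.5 to 64.6 elsewhere, while the second was at 88.1 in A/J and 63.3 to 88.4 elsewhere. A/J was lowest at the first site and near the top of the range at the second.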
